A study of Homo sapiens with 12 samples.

Results

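The large histone gene cluster on chromosome 6 was examined in ATAC-seq peak lists, which mark stretches of DNA that a transposase can enter, from 2 human oesophageal squamous carcinoma cell lines. All deposited peaks lying between positions 25700000 and 28400000 of chromosome 6 (GRCh38) were merged over the 12 lists wherever they shared 1 bp, which gave 1815 regions out of 2361798 merged regions in the whole genome. A region was counted as a histone region when it lay within 1 kb of a RefSeq symbol starting with H1-, H2A, H2B, H3C or H4C. There were 97 histone regions, 106 regions near a tRNA gene and no histone symbol (tRNA regions), and 1612 near neither (other regions). RefSeq places 68 such histone symbols in this window, of which 55 are protein-coding genes and 13 are pseudogenes or non-coding, together with 101 tRNA genes and 33 other coding genes. Of the 97 histone regions, 57 lay near 1 histone symbol, 38 near 2 and 2 near 3.

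The lines were KYSE150 and KYSE510, both grown in RPMI-1640 medium with 10% fetal bovine serum. Each gave 3 control libraries and 3 libraries after silencing of HCP5, a long non-coding RNA, labelled with the prefix Sh. The labels name neither the silencing construct nor the control construct, and do not say whether the 3 libraries came from separate cultures, so the spread between them may be technical. The title of the series connects HCP5 with apoptosis and with c-Myc and UTP3. Here, silenced libraries were compared with control libraries in each line, and the lines with each other.

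Core histones H2A, H2B, H3 and H4 form the protein spool of the nucleosome, and linker histone H1 binds where DNA enters and leaves it. Replication-dependent histone genes are short, lack introns, exist in many near-identical copies and are transcribed together in S phase, when new DNA has to be packaged. Many H2A and H2B genes stand head to head and share 1 short promoter stretch between their starts. tRNA genes, read by RNA polymerase III, fill much of the space between and around the histone genes of this cluster.

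In the window, 516 to 582 peaks were listed per KYSE150 library and 187 to 215 per KYSE510 library. The lists of the lines differ in length and in their weakest peaks over the whole genome, so effects of the line and of sequencing or peak calling cannot be told apart. For that reason, the presence of a peak at a gene is given for peaks with a false discovery rate (FDR) of at most 0.05 in the authors' tables, unless all deposited peaks are named. Such peaks numbered 167 to 200 per KYSE150 library and 174 to 187 per KYSE510 library in the window. Peak height is the authors' pileup, a height signal and not a read count. The read depth is unknown, so heights were not scaled between libraries. How reads that fit several near-identical histone genes were treated is not given in the sources used here, so a height at a single histone copy is uncertain to that extent.

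The stretches upstream of 6 genes are printed here because these genes stand for the patterns described below: H2BC11 had a peak in all 12 libraries, H2BC8 and H4C5 in KYSE150 alone, H2BC3 and H4C6 in KYSE510 alone, and H2BC1, a testis histone gene, in none. Sequences are from RefSeq (GRCh38.p14), read 5′ to 3′ toward the gene, and end at the base before the annotated start. They begin at most 250 bases upstream, or at the neighbouring histone gene where that is nearer. Capitals mark 3 core promoter motifs of histone genes on either strand, with overlapping matches run together: the letters TATAAA, the letters CCAAT, and the octamer ATTTGCAT.

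H2BC11 upstream stretch, chr6:27132796-27133042, minus strand: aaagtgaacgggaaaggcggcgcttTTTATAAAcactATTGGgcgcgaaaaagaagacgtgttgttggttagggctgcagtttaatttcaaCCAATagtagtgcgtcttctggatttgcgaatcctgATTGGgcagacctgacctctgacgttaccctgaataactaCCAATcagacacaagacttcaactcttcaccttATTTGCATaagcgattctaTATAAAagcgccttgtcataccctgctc
H2BC8 upstream stretch, chr6:26216689-26216920, minus strand: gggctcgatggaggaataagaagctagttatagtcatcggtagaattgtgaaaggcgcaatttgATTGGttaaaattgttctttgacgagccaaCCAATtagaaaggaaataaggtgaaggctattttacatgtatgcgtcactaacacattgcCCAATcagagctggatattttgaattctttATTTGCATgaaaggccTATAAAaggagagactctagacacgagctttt
H2BC3 upstream stretch, chr6:26043714-26043899, minus strand: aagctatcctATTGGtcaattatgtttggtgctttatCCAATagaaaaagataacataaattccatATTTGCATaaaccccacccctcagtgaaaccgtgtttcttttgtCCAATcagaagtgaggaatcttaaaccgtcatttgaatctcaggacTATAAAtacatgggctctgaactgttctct
H2BC1 upstream stretch, chr6:25726563-25726776, plus strand: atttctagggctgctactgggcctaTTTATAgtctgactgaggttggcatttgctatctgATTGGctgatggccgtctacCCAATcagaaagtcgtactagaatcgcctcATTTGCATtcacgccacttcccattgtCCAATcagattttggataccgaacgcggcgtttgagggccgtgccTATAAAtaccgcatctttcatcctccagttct
H4C5 upstream stretch, chr6:26204360-26204609, plus strand: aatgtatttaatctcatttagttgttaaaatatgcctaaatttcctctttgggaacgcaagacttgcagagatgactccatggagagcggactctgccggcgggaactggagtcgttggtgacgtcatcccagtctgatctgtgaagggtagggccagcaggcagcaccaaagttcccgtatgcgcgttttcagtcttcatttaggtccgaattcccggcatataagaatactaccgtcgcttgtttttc
H4C6 upstream stretch, chr6:26240143-26240392, plus strand: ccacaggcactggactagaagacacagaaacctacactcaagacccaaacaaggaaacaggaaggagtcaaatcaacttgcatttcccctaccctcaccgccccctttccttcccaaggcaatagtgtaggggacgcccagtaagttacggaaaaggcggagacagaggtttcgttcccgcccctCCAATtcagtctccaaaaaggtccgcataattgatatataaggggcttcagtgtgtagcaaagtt

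Of the promoters printed, H2BC11, H2BC8, H2BC3 and H2BC1 each carry all 3 motifs, while H4C5 carries none of them and H4C6 only CCAAT. Of the 55 coding genes, 50 had a RefSeq promoter. Within the 250 bases before the start, CCAAT was present in 86% of the 50, TATAAA in 66% and the octamer in 44%. Over all 27305 RefSeq promoters the shares were 33.0%, 11.1% and 1.66%. A match on either strand counted. In H2BC4, H2BC14, H2BC17, H2AC8 and H3C6, TATAAA lay only on the opposite strand, 157 to 220 bases before the start. By family, the octamer was found in 12 of 15 H2B genes and 9 of 11 H2A genes, and in head-to-head genes the same letters can lie in both windows. It was found in 1 of 8 H3 genes, 0 of 6 H1 genes and 0 of 10 H4 genes. The H3 gene was H3C4, and its matches lay at the same distances as those of H2AC7. Both gene spans end at position 26199293 on the minus strand, so this octamer is not separate from that of H2AC7. For peak cover, the start of H3C4 was instead taken at 26197286. CCAAT was present in every H1, H2A, H2B and H3 promoter of the table but in only 3 of 10 H4 promoters. Genes with and without peaks carried these motifs. Among the 7 genes with no peak in any library, 6 had TATAAA, 6 had CCAAT and 3 had the octamer. Among the 23 with a peak in all 12 libraries that had a promoter entry, the counts were 16, 21 and 11. A match is only a run of letters and no measure of binding.

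Coding histone genes with a peak in all 12 libraries were mostly open at the start. In the 23 of them with a promoter entry, the position 50 bp before the start was covered by a peak in 94.2% of gene and library combinations in KYSE150, the highest share along the gene. In KYSE510 the highest share was 87.0%, at the start itself. Genes with a peak in all KYSE150 libraries alone reached 90.5% at the start in that line. In the 11 genes with a peak in some other combination of libraries the highest share was 39.4% in KYSE150 and 48.5% in KYSE510, 50 bp before the start. In the first set the cover fell off within about 500 bp on both sides, as the plot of peak cover by distance shows.

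**Figure D1:**
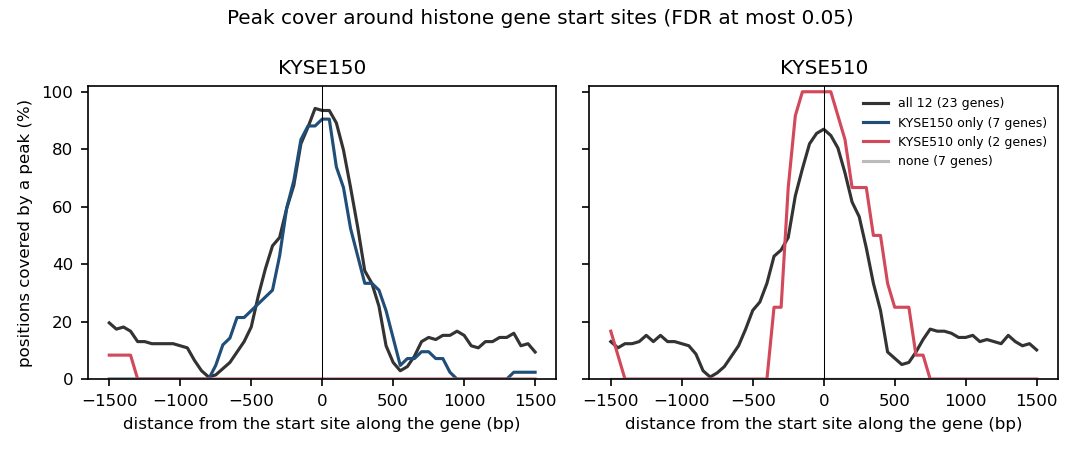
Percentage of gene and library combinations with a peak (FDR at most 0.05) over each position, by distance in bp from the annotated start, for KYSE150 (left) and KYSE510 (right); lines stand for coding histone genes grouped by the libraries in which they had a peak within 1 kb. Cover reaches 94.2% in KYSE150 and 87.0% in KYSE510 for genes with a peak in all 12 libraries, and is 0 in KYSE510 for genes with a peak in KYSE150 only because that is how they were grouped.

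Of the 55 coding histone genes, 26 had a peak within 1 kb in all 12 libraries, 7 in all 6 KYSE150 libraries and no KYSE510 library, 3 in all 6 KYSE510 libraries and no KYSE150 library, 12 in some other combination and 7 in none. No such share was taken over all genes of the genome, and genome shares of merged regions are given further below. Most of the widely open genes encoded H2A or H2B: 7 of 12 H2A genes and 9 of 15 H2B genes had a peak in all 12 libraries, against 4 of 10 H3, 4 of 12 H4 and 2 of 6 H1 genes. A peak between head-to-head genes counts for both, so these are not independent counts. A gene counted here need not be open at its start. The start of H2BC5 lay in a peak in 6 KYSE150 libraries but in 0 KYSE510 libraries. By position, the genes form 3 stretches separated by at least 300 kb. The first, chr6:25726063-26285534, holds 34 genes, of which 16 were open in all 12 libraries. The second, chr6:27132316-27147562, holds 5 genes, of which 4 were. The last, chr6:27807479-27893891, holds 16 genes, of which 6 were.

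By median height in each line, the tallest histone peak stood between H2BC11 and H2AC11, with heights of 30, 25 and 34 in KYSE150 control libraries and 28, 18 and 23 in silenced libraries. In KYSE510 the same peak was 19, 17 and 18 high in control and 24, 12 and 28 in silenced libraries. Control and silenced libraries overlapped in both lines at this pair. Another tall peak, at the H2BC4 and H2AC6 pair, gave 27, 23 and 30 in KYSE150 control libraries and 19, 20 and 21 in silenced libraries, which did not overlap. Heights are not scaled, and at the FDR limit of 0.05 the median height over all histone peaks was also higher in every KYSE150 control library (13.5 to 14) than in every silenced one (11 to 12), while such peaks in the whole genome numbered 96400 to 97874 and 78240 to 91884. The part of these shifts in differences at single genes was not tested. In KYSE510 that pair gave 19, 18 and 18 in control and 14, 19 and 14 in silenced libraries, which did overlap. H2BC10, a single H2B gene, stood at 27, 23 and 26 in KYSE150 control libraries and 21, 23 and 17 in silenced libraries. Linker histone genes were split: H1-2 (15 to 24 in KYSE150, 7 to 13 in KYSE510) and H1-4 (19 to 29 and 7 to 17) were open in all 12 libraries. H1-1, H1-3 and H1-6 were open in none, and H1-5 had 10, 5 and 8 in KYSE510 control and 12, 7 and 0 in silenced libraries, against at most 3 in KYSE150.

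**Figure D2:**
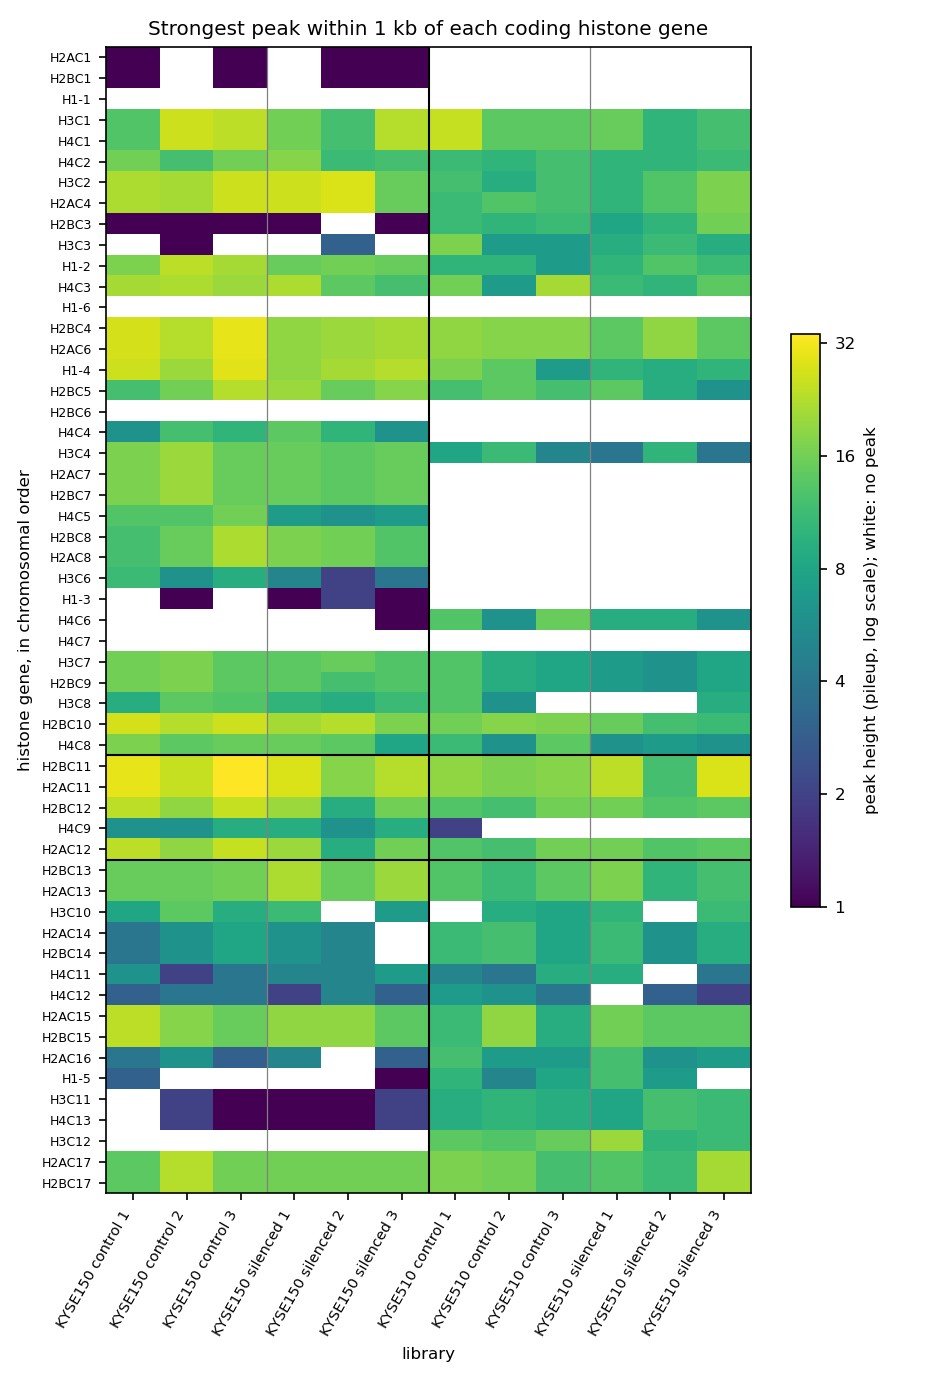
Height of the strongest deposited peak (pileup, log colour scale) within 1 kb of each of the 55 coding histone genes in chromosomal order (rows) in each of the 12 libraries (columns); white means no deposited peak, and horizontal lines part the 3 stretches. A block of genes from H4C4 to H3C6 is high in KYSE150 and, except for H3C4, empty in KYSE510, while H2BC3, H4C6 and H3C12 are high in KYSE510 only.

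Among the 7 genes open in no library were the testis histones. H1-6, H2AC1 and H2BC1 encode histones made in the testis, and none of these genes had a peak at an FDR of at most 0.05. Among all deposited peaks, a peak of height 1 lay within 1 kb of the H2AC1 and H2BC1 pair in 4 KYSE150 libraries, and H1-6 had none. H1-1, H2BC6 and H4C7 also had no deposited peak in any library, which with H1-6 makes 4 genes. H1-3 had deposited peaks of height 1 or 2 in 4 KYSE150 libraries, none of which had an FDR of at most 0.05.

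A run of neighbouring genes in the first stretch was open in KYSE150 and empty in KYSE510. No KYSE510 library had any deposited peak between positions 26197516 and 26240116 of chromosome 6, 42601 bp that hold H2AC7, H2BC7, H4C5, H2BC8, H2AC8, H3C6 and H1-3. In KYSE150 the H2AC7 and H2BC7 pair gave heights of 17, 20 and 15 in control and 15, 14 and 15 in silenced libraries. The H2BC8 and H2AC8 pair gave 12, 15 and 22 in control and 17, 16 and 13 in silenced libraries. H4C5 gave 13, 13 and 16 in control and 7, 6 and 7 in silenced libraries, and H3C6 gave 11, 6 and 9 and then 5, 2 and 4. At H4C5 and H3C6 every KYSE150 control library was higher than every silenced library, while both pairs overlapped. Outside this run, H1-2 did not overlap either, at 17, 24 and 21 in control and 15, 16 and 15 in silenced libraries. These heights are not scaled, and the median over all histone peaks differed in the same direction, as given above. The share of genes in the genome with such a gap in height was not taken. Long empty stretches were common in the KYSE510 lists: 11 in the window were at least this long. Of these, 1 held any region that was called in all 6 KYSE150 libraries, and it held 3. Shortly before this stretch, H4C4 had heights of 6, 12 and 10 in KYSE150 control and 14, 10 and 6 in silenced libraries, and no KYSE510 peak. The promoter side of H3C4, which lies between H4C4 and H2AC7, was open in both lines, with 8 to 15 in KYSE150 and 4 to 11 in KYSE510. H4C9, in the second stretch, was the remaining gene of this kind, at 6 to 9 in KYSE150 and with 1 peak of height 2 in KYSE510 that had an FDR above 0.05.

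A peak in KYSE510 only was found at fewer genes, scattered along the cluster. H4C6 begins just past the end of the empty KYSE510 stretch and gave 13, 6 and 15 in KYSE510 control and 9, 9 and 6 in silenced libraries, while in KYSE150 a single library had a peak of height 1. H2BC3 gave 11, 10 and 11 in KYSE510 control and 8, 10 and 16 in silenced libraries, against at most 1 in KYSE150. H3C12 gave 14, 13 and 15 and then 20, 10 and 11 in KYSE510, and had no deposited peak in KYSE150. H3C3 (7 to 17 in KYSE510) and the H3C11 and H4C13 neighbours (8 to 12) had a peak in 6 KYSE510 libraries and in 1 KYSE150 library. In KYSE150 the 18531 bp from 26224532 to 26243062, which hold H1-3 and H4C6, had 18 deposited peaks, the tallest 2 high. Controls and silenced libraries of the same line overlapped in height at H2BC3, H4C6 and H3C12.

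The remaining genes with peaks in some libraries lay mainly in the last stretch, where 9 of 16 were of this kind. H2AC14 and H2BC14 shared a peak of 4, 6 and 8 in KYSE150 control and 6, 5 and 0 in silenced libraries, and of 11, 12 and 8, then 11, 6 and 9, in KYSE510. H2AC16 likewise stood at 0 to 6 in KYSE150 and 6 to 12 in KYSE510, and H4C11 at 2 to 7 and 0 to 9. In the first stretch H3C8 was open in all 6 KYSE150 libraries (9 to 14) and in 3 of 6 KYSE510 libraries (13 and 6 in control, 9 in silenced). Median heights over the genes of a stretch were 14.5 in KYSE150 and 7.25 in KYSE510 in the first stretch, and 5.5 and 10 in the last, so the lines ranked in opposite order there; heights are not scaled for depth.

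Counted as merged regions at an FDR of at most 0.05, 5 of the 67 histone regions (7.46%) were called in all 6 KYSE150 and no KYSE510 libraries, and 4 (5.97%) in all 6 KYSE510 and no KYSE150 libraries. Over the genome these shares were 0.271% and 1.7% of 393858 regions. In all 12 libraries, 21 histone regions (31.3%) were called, against 5.52% of regions in the genome. Most regions of the genome list occur in 1 or a few libraries, so the shares were also taken among regions called in all 6 libraries of at least 1 line, a denominator chosen after seeing the data. Of 36 such histone regions, 5 (13.9%) were absent from every KYSE510 library, against 2.08% in the genome, and 4 (11.1%) from every KYSE150 library, against 13.1%. On that denominator the KYSE510-only share was near that of the genome and the KYSE150-only share was above it. The 5 KYSE150-only regions lie at H4C4, at H2AC7 and H2BC7, at H4C5, at H2BC8 and H2AC8, and at H4C9, and 3 of them fall in the empty KYSE510 stretch, so they are neighbours rather than separate draws. tRNA regions had 1 KYSE150-only and 2 KYSE510-only among 38, and other regions had 1 and 1 among 46.

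The number of coding histone genes with any deposited peak was 45, 46 and 46 in KYSE150 control and 45, 45 and 47 in silenced libraries. In KYSE510 it was 40, 40 and 39 in control and 38, 37 and 39 in silenced libraries. The lines did not overlap and the mean difference, KYSE510 minus KYSE150, was -6.83 genes. With peaks at an FDR of at most 0.05 this difference was -1.83 genes (40.0 ± 0.894 in KYSE150 and 38.2 ± 1.17 in KYSE510, SD, n = 6 each), with 39 to 41 and 36 to 39 genes, which overlap. At the stricter FDR of at most 1e-05 it was -7.5 genes (31.7 ± 2.07 and 24.2 ± 3.97, SD, n = 6 each), with 28 to 34 and 21 to 32 genes, which also overlap.

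Fold enrichment, which the authors' caller computes as height over local background with 1 added to each, gave a second view of the regions. Within each library, all 28333 regions of the genome called in all 12 libraries were ranked by fold enrichment. Ranks were turned into normal scores, so that 0 is the middle of these 28333 regions and not of the whole genome. Percentiles of the same ranks are given for single regions. Of the window, 21 histone, 27 tRNA and 32 other regions were called in all 12 libraries, out of 97, 106 and 1612, against 1.2% of all regions in the genome. The highest histone region by mean score lay just past the end of H2BC5 and near H2BC6-AS1 (chr6:26171723-26172551), at percentile 82.0 ± 8.4 in KYSE150 and 52.6 ± 24.7 in KYSE510 (SD, n = 6). RefSeq gives H2BC5 a span of 13229 bp, and the median peak centre lay 13861.5 bp past its start. H4C3 followed at 80.6 ± 7.6 and 48.9 ± 21.7. The regions of H2AC15 with H2BC15, of H2BC10, and of H2BC4 with H2AC6 made up the rest of the 5 highest, at 61.4 to 74.2 in KYSE150 and 37.3 to 46.7 in KYSE510. The lowest was a region beside H4C2 (chr6:26026191-26026667), at 37.2 ± 13.3 and 11.1 ± 4.3. H3C4, H2AC4, the region over H3C7 (chr6:26249694-26250790) and a region past the end of H1-2 (chr6:26054915-26055842) completed the 5 lowest, at 31.6 to 50.4 and 9.1 to 22.0. Even the highest histone region stood below the top regions nearby. ZNF165 (zinc finger protein) was at 89.7 ± 11.9 and 80.1 ± 9.7, an unnamed region at chr6:26341414-26342329 at 93.6 ± 1.6 and 76.6 ± 9.3, and ZNF184 at 91.9 ± 6.9 and 71.8 ± 12.8. The highest tRNA regions were those of TRP-CGG2-1 (89.1 ± 10.0 and 59.8 ± 23.4), TRS-TGA4-1 (80.4 ± 5.6 and 62.6 ± 16.6) and TRK-CTT2-4 (72.7 ± 16.8 and 63.9 ± 9.9).

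Only histone regions called in all 12 libraries could be compared by rank. That left out H2BC3, H4C6 and H3C12, with peaks mainly or only in KYSE510. It also left out H4C5 and H2BC8, with peaks in KYSE150 only. All 21 histone regions that remained ranked lower in KYSE510 than in KYSE150. Of these, 14 passed limma's moderated test (Benjamini-Hochberg adjusted over the genome). None passed in the other direction. In the genome, 15.7% of regions were lower in KYSE510 by the same test and 15.8% were higher. The median change of the 21 was -0.88 score units, against -0.06 over all regions tested. The rest of the window moved the same way: 12 of 27 tRNA regions and 16 of 32 other regions were lower and none was higher, with median changes of -0.66 and -0.64. The smallest p among histone regions was at the pseudogene H3C9P (-1.47 ± 0.24 SE, limma adjusted p = 0.000126), a region that also holds TRR-TCG2-1. The H3C2 region, also within 1 kb of H2AC4, changed by -1.26 ± 0.23 (limma adjusted p = 0.000338), the H3C7 region by -1.45 ± 0.28 (0.000668), H2AC17 with H2BC17 by -1.13 ± 0.23 (0.000849) and H4C8 by -1.16 ± 0.26 (0.0021). In the window the smallest p was at a region near no listed gene, chr6:26351461-26351939, with a change of -2.74 ± 0.26 (limma adjusted p = 2.72e-07). Local background, as a multiple of the floor of a library, differed between the lines as well. The floor is the most frequent background value among all deposited peaks of the library. It was itself 0.0826 to 0.108 in KYSE150 and 0.180 to 0.217 in KYSE510. Multiples of it therefore do not compare the background of the lines directly. At peaks with an FDR of at most 0.05, the background under a histone peak was 10.3 to 14.4 times the library floor in KYSE150 and 4.75 to 6.12 times in KYSE510, and its part in the line difference was not tested. Ranked by height instead, the histone regions differed by -1.03 score units between the lines on average, against -0.83 by fold enrichment.

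**Figure D3:**
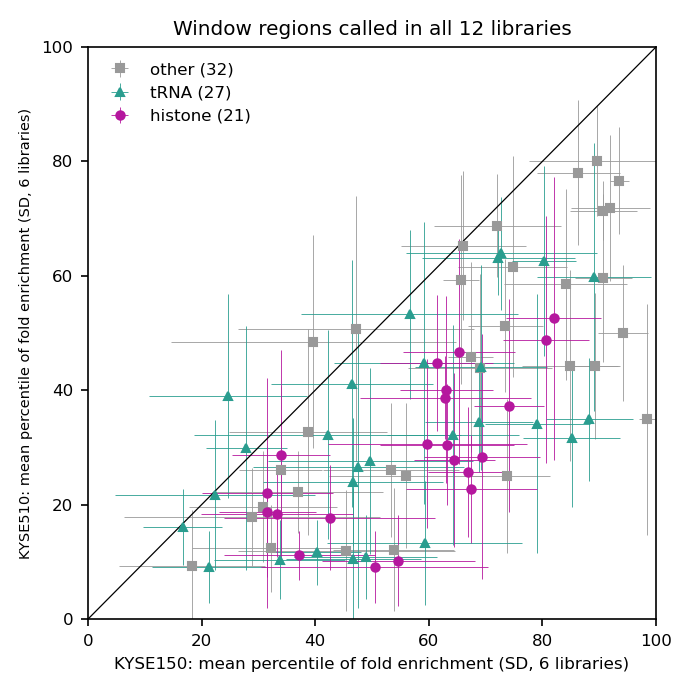
Mean percentile of fold enrichment among the 28333 regions called in all 12 libraries, in KYSE150 (horizontal) and KYSE510 (vertical), for each window region called in all 12; bars are SD over 6 libraries, and the line marks equal percentiles. All 21 histone regions lie below the line.

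Whether histone regions ranked above or below their neighbours depended on which value was ranked and, by fold enrichment, on the class of neighbour. By fold enrichment, the mean score of histone regions minus that of the tRNA and other regions combined was -0.144 ± 0.116 in KYSE150 and -0.262 ± 0.135 in KYSE510 (SD, n = 6), and it was below 0 in each of the 12 libraries. By peak height, the same difference was above 0, at 0.456 in KYSE150 and 0.241 in KYSE510. Taken apart by fold enrichment, the KYSE150 means were 0.191 ± 0.068 for histone, 0.131 ± 0.106 for tRNA and 0.507 ± 0.069 for other regions. In KYSE510 they were -0.643 ± 0.136, -0.574 ± 0.191 and -0.217 ± 0.043. Histone regions thus scored below other regions in both lines, but on average above tRNA regions in KYSE150. Local background differed between the same classes. For peaks below the FDR threshold of 0.05 it stood at 12.7 ± 1.44 times the library floor under histone peaks, 5.75 ± 0.935 times under tRNA peaks and 2.81 ± 0.261 times under other peaks in KYSE150. In KYSE510 the values were 5.59 ± 0.491, 2.90 ± 0.368 and 2.06 ± 0.257. Fold enrichment is relative to that background, and height is not.

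No region of the window passed limma's test for silencing of HCP5 in either line. In KYSE150, 114 window regions were tested and none passed an adjusted p of 0.05, with 1 higher and 3 lower at an unadjusted p under 0.05. In KYSE510, 105 were tested and none passed, with 1 higher and 2 lower unadjusted. In the genome 0% of regions passed in either line, and at the unadjusted threshold 2.61% were higher and 2.72% lower in KYSE150, and 3.95% and 3.34% in KYSE510.

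Among histone regions, 32 were tested in KYSE150 and 29 in KYSE510. The smallest p in KYSE150 was at H3C6, an H3 gene of the block missing from KYSE510 (-0.89 ± 0.37 SE, unadjusted p = 0.0343, limma adjusted p = 0.929). H4C5, its neighbour, came next at -0.59 ± 0.30 (limma adjusted p = 0.929), and H4C3 at -0.19 ± 0.31 (0.975). At both H3C6 and H4C5 the heights given above were also lower in every silenced than in every control library, the nearest being 6 and 5 at H3C6. The median height of all histone peaks differed in the same direction, as given above. On the higher side, H4C9, which lies inside H2BC12, differed by 0.52 ± 0.31, H2BC13 with H2AC13 by 0.46 ± 0.29 and the H3C7 region by 0.52 ± 0.35, with limma adjusted p of 0.93, 0.932 and 0.935. In KYSE510 the smallest p was at H2AC4 (-0.73 ± 0.32, unadjusted p = 0.045, limma adjusted p = 0.675), then the region over H2BC9 (chr6:26251441-26252079, -0.68 ± 0.34, limma adjusted p = 0.72) and H4C8 (-0.73 ± 0.39, limma adjusted p = 0.74). H1-2, H3C2, and H2AC15 with H2BC15 were on the higher side, by 0.47 ± 0.37, 0.35 ± 0.34 and 0.29 ± 0.40 (limma adjusted p = 0.831, 0.869 and 0.918).

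The scores of silenced and control libraries did not overlap at 5 of the 32 histone regions in KYSE150, 3 higher and 2 lower after silencing, and at 2 of 29 in KYSE510, both lower. In the genome, 6.46% of regions were higher and 4.95% lower without overlap in KYSE150, and 6.18% and 6.32% in KYSE510. Nothing is read from counts this small and this near those shares. For the tRNA regions the counts were 4 higher and 5 lower of 33 in KYSE150, and 0 and 3 of 37 in KYSE510.

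Taken as a mean over the 21 histone regions, the score was 0.116, 0.159 and 0.138 in KYSE150 control and 0.239, 0.199 and 0.296 in silenced libraries, a difference of 0.107. In KYSE510 it was -0.632, -0.441 and -0.544 in control and -0.684, -0.732 and -0.824 in silenced libraries, a difference of -0.208. Silenced libraries were thus all higher in KYSE150 and all lower in KYSE510, and the effects differed by -0.315 between the lines. These directions did not hold under every setting: the KYSE150 effect was -0.0179 where a peak had to cover at least 50% of its region (7 histone regions left) and 0.0227 by height. At an FDR of at most 1e-05 (4 left) the KYSE510 effect was 0.224 and the difference between the lines -0.0374. No p is given for this mean because its regions were chosen with earlier results of these data known. By region, limma's treatment-by-line term passed at 0 of 80 window regions, against 0.00353% of regions higher and 0% lower in the genome. At an unadjusted p under 0.05 there was 1 higher and 0 lower, against 2.85% and 2.64%. No window region had all silenced libraries on opposite sides of the controls in the 2 lines, against 0.536% in the genome. The mean over tRNA regions was lower after silencing in both lines, from 0.197 ± 0.116 to 0.065 ± 0.043 in KYSE150 and from -0.457 ± 0.054 to -0.691 ± 0.217 in KYSE510 (SD, n = 3), with control and silenced libraries overlapping in both. The mean over other regions differed by less than the SD of the control libraries in each line (0.536 ± 0.078 and 0.478 ± 0.059, then -0.212 ± 0.056 and -0.223 ± 0.039).

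**Figure D4:**
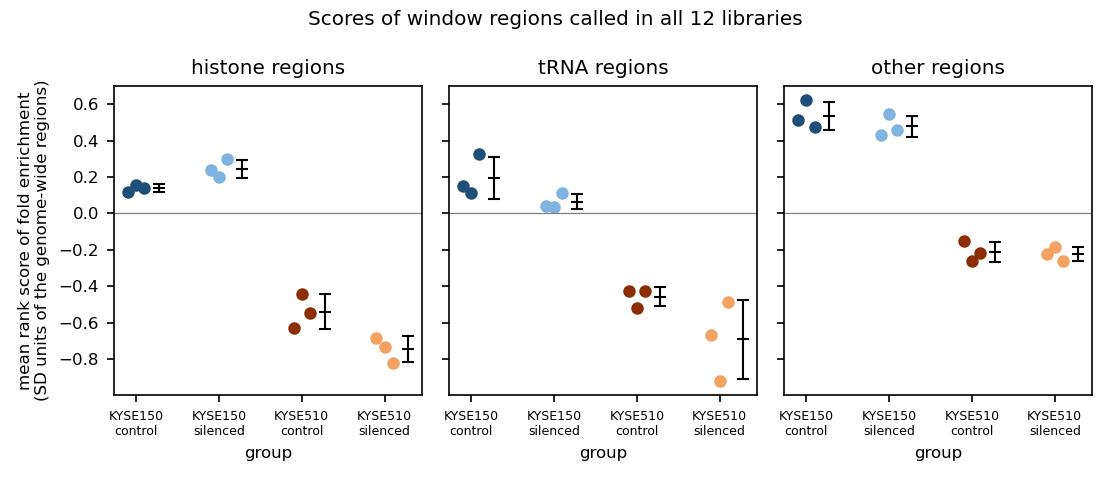
Mean normal score of fold enrichment over histone (21), tRNA (27) and other (32) window regions in each library, by group; points are libraries, and bars are the mean and SD of 3. Histone scores of silenced libraries lie above the controls in KYSE150 (0.199 to 0.296 against 0.116 to 0.159) and below them in KYSE510 (-0.824 to -0.684 against -0.632 to -0.441).

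Presence of a peak on 1 side of the treatment was rare. In KYSE150, 9 of 1746 window regions had a peak in every control library and in no silenced one, and 6 the reverse, against 0.301% and 0.253% of regions in the genome, and none was a histone region. At an FDR of at most 0.05 the window counts in KYSE150 were 2 and 0, against 0.478% and 0.141%. In KYSE510, 1 of 306 was found in controls only and 3 in silenced libraries only, against 0.31% and 0.56%. Histone regions made up 54 of the 306, and 1 of them was control-only and 2 were silenced-only. Nothing is read from counts this small. The control-only region lay inside the H2BC12 gene, close to H2AC12 (chr6:27145873-27146466), with heights of 9, 6 and 7 in controls, beside a larger peak at the shared start of these genes that was present in all 12 libraries. The silenced-only histone regions lay at the pseudogene H2BP5 (chr6:25883974-25884461), with heights of 2, 3 and 2, and near the pseudogene H1-12P and H3C4 (chr6:26195850-26196396), with heights of 2, 5 and 3. With peaks at an FDR of at most 0.05, neither silenced-only histone region remained. H4C12 (chr6:27830709-27831695) joined the control-only side, with deposited heights at the gene of 7, 6 and 4 in control and 0, 3 and 2 in silenced libraries. The genome shares at that threshold were 0.327% for controls only and 0.705% for silenced only.

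Outside the histone genes, peaks at the tRNA genes of the window were uneven too. Of 101, 31 had a peak within 1 kb in all 12 libraries, 43 in some, 24 in none, and 3 (TRM-CAT4-2, TRS-AGA4-1 and TRI-TAT2-3) in the 6 KYSE510 libraries alone, while none was open in KYSE150 alone. Of merged regions in the genome called in all 6 libraries of at least 1 line, 13.1% were KYSE510-only and 2.08% KYSE150-only. No share over all genes of the genome was taken for these counts or for those of the coding genes below. TRM-CAT4-2, a methionine tRNA gene, had a median height of 12 in KYSE510 and 0 in KYSE150. Among fixed lists of neighbouring coding genes, 11 of the 14 genes in a list of zinc finger and SCAN domain genes and NKAPL had a peak in all 12 libraries. ZNF184 had median heights of 32 in KYSE150 and 20 in KYSE510, ZNF165 had 28.5 and 25.5, and NKAPL had none. Of the 6 butyrophilin genes, which encode immune-related membrane proteins, 4 had a peak in all 12. BTN2A1 was at 18 and 14.5 and BTN2A2 at 17 and 10, while BTN1A1 had no peak in KYSE150 and 1.5 in KYSE510. Among the SLC17 phosphate transporter genes, SLC17A1 was at 3.5 and 6, although its long body also spans the testis histone genes. Olfactory and pheromone receptor genes had 0 at the median in both lines. HMGN4, a nucleosome-binding protein gene, was at 20.5 and 13.5, and PRSS16, a thymus serine protease gene, at 26 and 12. TRIM38, at the near edge of the cluster, differed in the other direction, at 2.5 in KYSE150 and 15 in KYSE510. Its start region (chr6:25962293-25962978) was 1 of the 7 window regions called in all 6 KYSE510 and no KYSE150 libraries. Another region, just past the end of TRIM38 (chr6:25991663-25993327), was called in all 12 libraries. By fold enrichment that region ranked higher in KYSE150, at percentile 73.4 ± 6.6 against 51.2 ± 11.6 in KYSE510 (SD, n = 6).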

How the data were processed

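Deposited ATAC-seq peak tables of 12 libraries (2 cell lines, control and HCP5-silenced, 3 each, as labelled) were used. Per the submitters' processing notes, the tools named are Trimmomatic 0.36, Bowtie2 2.2.6, Picard 2.8.2, MACS2 2.1.1 and bedtools 2.25.0, with build GRCh38. Per the file headers, the authors give each peak a fold enrichment (a ratio of height to local background), a p-value, an FDR, a length and a pileup, which is a height signal and not a read count. The largest deposited p-value was 0.00987 and the shortest peak 200 bp. Depth is unknown, so no counting interval was computed. Background was solved from height and fold as deposited.

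Peaks on 24 chromosomes were merged where they shared 1 bp. A gene had a peak when one lay within 1 kb of it. Scores are normal scores of within-library ranks of fold enrichment over regions called in all libraries compared. They were tested with limma 3.58.1 (R 4.3.3), Benjamini-Hochberg adjusted over the genome with a threshold of 0.05, and the fit was tested on simulated data. Python 3.11.15, pandas 2.3.3, numpy 2.4.6, scipy 1.17.1 and matplotlib 3.10.9 were used. Promoters and gene names are RefSeq GRCh38.p14.

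Genes and regions were named by rule: families and stretches, genes without a peak in 6 or more libraries, the 5 highest and 5 lowest histone regions, the smallest p in each direction, one-sided regions, and fixed lists of testis histones and neighbouring genes. Others named in the text were chosen after their values were seen. The members and lists were chosen with earlier results of these data known, and permutation tests planned for means and counts over the members are therefore not reported. Replicate numbers were not used to pair the libraries in the main tests. Correlations of same-numbered deviations were small and all positive (0.00861 to 0.088). Differently numbered libraries were not compared in this way, so whether same-numbered libraries share a batch was not tested. No library repeated another, with 0 or 1 identical peaks between replicates in the window.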

Additional observations from a re-analysis of the deposited data

Results flagged for a closer look

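The mean score of the 21 histone regions called in all 12 libraries was higher in every silenced than in every control library of KYSE150, and lower in every silenced than in every control library of KYSE510. The silencing effects were 0.107 and -0.208, a difference of -0.315 score units. The KYSE150 effect turned to -0.0179 where a peak had to cover at least 50% of its region, and at an FDR of at most 1e-05 the KYSE510 effect turned to 0.224 and the difference came to -0.0374. This difference between the lines was not tested, since the regions were chosen with earlier results known. No single region of the window passed limma's test of the same difference. Local background under histone peaks was 12.6 to 14.4 times the library floor in KYSE150 control and 10.3 to 13.2 times in silenced libraries, and 5.59 to 6.12 and 4.75 to 6 times in KYSE510, and its part in the result was not tested.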

How the results depend on the processing

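Of the values below, means and counts over the members carry no test, and each is called moved when it differed from the reported value by more than 1 SD between replicates. Those in log2 fold enrichment are in log2 units, not score units, so only their sign can be compared with the reported scores. The histone score difference between the lines kept its sign under every alternative: -0.666 at an FDR of at most 1e-05 (4 histone regions left), -0.725 where a peak had to cover most of a region (at least 50%) (7 left), -1.03 by height and -0.549 in log2 fold enrichment. The cause was not tested. The silencing effect on the histone score in KYSE150 was 0.262 at an FDR of at most 1e-05, 0.0227 by height and -0.0179 with the cover rule, which reversed it. In KYSE510 the strict FDR gave 0.224, also reversed, and -0.121 in log2 fold. The difference between these effects was -0.0374 with the strict FDR (4 histone regions left) and -0.130 with the cover rule (7 left). It was -0.211 by height and -0.201 in log2 fold. Why it changed was not tested. Against the other window regions, the KYSE150 effect was 0.492 (strict FDR), -0.0292 (cover rule, reversed), 0.119 (height) and 0.152 (log2 fold), the KYSE510 effect 0.174 (strict FDR, reversed), the difference of effects -0.0809 (cover rule) and the line difference 0.0766 (strict FDR, reversed). Histone minus other regions within KYSE150 came to -0.282 (FDR limit 0.05), -0.970 (limit 1e-05), -0.358 with the cover rule and 0.456 by height (reversed), and within KYSE510 -0.894 at 1e-05 and 0.241 by height (reversed). These alternatives for the class difference were added after seeing the data. Histone genes with a peak differed between the lines by -1.83 at an FDR of at most 0.05, -7.5 at 1e-05, -5.17 with overlap of the gene itself and -3.67 with the cover rule. Silencing effects on that number were -2.67 and 1 in KYSE150 and -4.33 and -3.67 in KYSE510 (strict FDR, then cover rule), and they differed by -4.67 with the cover rule. No summit was used, since the tables list none.

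With 1 library left out, the histone score effects ranged from 0.0755 to 0.127 in KYSE150 and from -0.312 to -0.158 in KYSE510 (the extreme without the first silenced library), and their difference from -0.416 to -0.264. The line difference of that score ranged from -0.850 to -0.789, and limma called 36 to 42 window regions and 11 to 14 histone regions lower in KYSE510, none higher. One-sided regions in the window depend on every library, since 2 libraries a side are met more easily: 10 to 36 control-only and 7 to 34 silenced-only in KYSE150, and 2 to 5 and 3 to 6 in KYSE510. The FDR limit of 0.05 left 2 control-only and 0 silenced-only regions in KYSE150, that of 1e-05 left 3 and 1, and there were 16 and 10 with 1 opposing library allowed. In KYSE510 they were 2 and 0, 2 and 0, and 9 and 8. With the replicate number as a block, limma called 42 window regions lower in KYSE510, of them 14 histone regions, and 0 for silencing in either line, and the paired mean effects on the histone score were 0.107 and -0.208 as reported. The block changed single calls between the lines, with 13 tRNA and 15 other regions lower against 12 and 16 without it, and the 1 region of the genome that passed the treatment-by-line term no longer passed (limma adjusted p = 0.0719, the smallest, against 0.0488).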
